A study of Homo sapiens with 19 samples.

Results

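Hepatocytes keep their identity through a small set of transcription factors, and 7 of these were followed here in human liver organoids: HNF4A, FOXA1, FOXA2, FOXA3, PROX1, ONECUT1 and CEBPA. The genes were taken by name and matched by Ensembl identifier, and they are 7 of the 32703 identifiers that all 19 count matrices share. Each of the 7 was found in every matrix under the same symbol.

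The organoids were grown from W01, an established wild-type human pluripotent stem cell line, so all libraries come from 1 line. Dissociated cells were profiled in droplets with the 10x Genomics version 3 kit for transcript 3′ ends, which counts unique molecular identifiers (UMIs), 1 per captured transcript. Organoids in ultra-low attachment (ULA) plates received no treatment and were sampled on day 21 (3 libraries) and day 34 (2 libraries). Organoids on an orbital shaker were sampled on day 25 in 7 groups of 2 libraries. These groups were untreated, TGFB1 (transforming growth factor β1, a fibrogenic cytokine) at 10 ng/ml with its own control, PA at 500 µM with its own control, and OA at 500 µM with its own control. PA and OA are given as the labels write them. Treatment lasted 5 days after 20 days of culture, per the labels' protocols, which name TGFB1 and PA and not OA. The day 34 ULA and all shaker organoids were washed once more and kept in trypsin for a further 10 minutes, unlike those of ULA day 21. The protocol describes dissociation for each replicate, but no label says that replicates are separate cultures, so p-values measure the spread between these libraries, which may be technical.

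HNF4A is a nuclear receptor that binds the promoters of a large share of the genes hepatocytes secrete and metabolise with. FOXA1, FOXA2 and FOXA3 are forkhead factors that open liver chromatin in the embryo. PROX1 is a homeobox factor needed for hepatoblasts to spread out of the liver bud, and it is also made by lymphatic endothelium and by enteroendocrine cells. ONECUT1 (HNF6) is a cut-homeobox factor of hepatoblasts, hepatocytes and the biliary tree, and CEBPA is a leucine-zipper factor that turns on metabolic genes as hepatocytes mature. These factors bind one another's regulatory regions, and HNF4A, FOXA1 and FOXA2 also act in intestinal epithelium.

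The HNF4A gene has a pair of start regions that make different isoforms. HNF4A lies on the plus strand at chr20:44355699-44432845 (GRCh38, GENCODE 44). In the same annotation FOXA3 (chr19:45863989-45873797) and PROX1 (chr1:213983181-214041510) lie on the plus strand. FOXA1 (chr14:37589552-37596059), FOXA2 (chr20:22580998-22585455), ONECUT1 (chr15:52755053-52791078) and CEBPA (chr19:33299934-33302534) lie on the minus strand. The 250 bases before each annotated start are shown because the letters of the factors' core motifs can be read in them. Both are from RefSeq (GRCh38.p14), plus strand: chr20:44355449-44355698 lies outside any annotated gene, and chr20:44400989-44401238 lies inside HNF4A, outside its exons. Capitals mark matches to ATTGAT, the core of an ONECUT site, or to GTTAAT, the core letters of an HNF1 site, on either strand.
HNF4A first start region: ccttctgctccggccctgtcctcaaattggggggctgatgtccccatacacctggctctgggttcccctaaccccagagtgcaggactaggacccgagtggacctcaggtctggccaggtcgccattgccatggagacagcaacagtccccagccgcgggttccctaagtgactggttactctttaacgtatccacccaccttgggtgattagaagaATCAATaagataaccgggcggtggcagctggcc
HNF4A second start region: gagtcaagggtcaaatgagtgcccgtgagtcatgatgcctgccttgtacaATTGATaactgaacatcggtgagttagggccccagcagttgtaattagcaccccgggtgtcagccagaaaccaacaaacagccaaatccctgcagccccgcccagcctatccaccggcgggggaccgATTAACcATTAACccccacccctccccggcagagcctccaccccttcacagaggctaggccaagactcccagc
The first region holds the ONECUT letters on the minus strand, 33 to 28 bases before the start. The second holds them on the plus strand, 200 to 195 bases before the start, and the HNF1 letters on the minus strand at 73 to 68 and 66 to 61 bases. Of 35116 start regions of the same length, 5.58% held the ONECUT letters and 6.23% the HNF1 letters on either strand. The motifs were chosen after the sequences were seen, and a match is a description of the letters, not a bound site. The ONECUT1 start region, on the minus strand at chr15:52790337-52790586, lies inside ONECUT1, outside its exons. It is shown for contrast in the same build, and it holds no match to these motifs, to the FOXA letters TGTTTNC (15.5% of regions), to the HNF4 letters CAAAGTCC (1.02%) or to the CEBP letters TTGCNNAA (9.05%).
ONECUT1 start region: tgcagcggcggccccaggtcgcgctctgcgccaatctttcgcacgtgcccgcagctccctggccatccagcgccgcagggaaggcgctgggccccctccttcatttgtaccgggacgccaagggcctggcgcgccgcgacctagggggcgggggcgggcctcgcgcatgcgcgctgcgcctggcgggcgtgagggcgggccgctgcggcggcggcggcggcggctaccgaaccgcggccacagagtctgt
Of the 7 genes, 5 had an entry in the RefSeq table. The 3′ counts analysed here are summed per gene and do not separate the HNF4A start regions.

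A cell entered the analysis if it had 500 genes or more and no more than 20% mitochondrial UMIs, which left 120240 cells in all and 3089 to 12427 per library. Their UMIs summed to between 6880807 and 91184130 per library, and the median per cell ran from 1310 to 14304.5. No pair of libraries shared more than 32 cell barcodes, at most 0.581% of the smaller library. The hepatic label was checked with AFP (alpha-fetoprotein) and SERPINA1 (alpha-1 antitrypsin), both secreted by immature hepatocytes. Between 79.1% and 98.1% of cells in the shaker libraries held a UMI of either gene, against 4.88% to 30.3% in the ULA libraries. At 1000 UMIs drawn per cell, with shallower cells left out, these shares were 52.3% to 94.0% and 1.07% to 18.8%. Cells with at least 3 collagen UMIs, counted as a background, held such a UMI in 18.9% to 79.8% on the shaker and 0.591% to 7.61% in ULA at that draw (library medians before it, 1795 to 14769.5 and 6587 to 14497 UMIs per collagen cell). What those cells are was not tested. Levels are given as CPM, the gene's UMIs divided by the UMIs summed over all kept cells of the library, times 1000000. ALB, the mature hepatocyte's albumin, averaged 0.119 CPM in the TGFB1 libraries, 0.173 CPM on ULA day 34 and 492 ± 273 CPM (SD, n = 2) in the OA libraries. A list of 22 liver protein genes summed to 1704 to 1905 CPM on ULA day 21, 64.9 to 418 on ULA day 34 and 445 to 478 with TGFB1.

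In such sums over a library, fewer cells of a type and less RNA per cell cannot be told apart. The group mean was lowest on ULA day 34 for 6 of the 7 factors and lowest with TGFB1 for CEBPA. The control group of the TGFB1 experiment stood at the top for 4 of them (FOXA1, FOXA2, PROX1, ONECUT1). The order of the groups differed from gene to gene, and neighbours in it often overlapped.

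**Figure D1:**
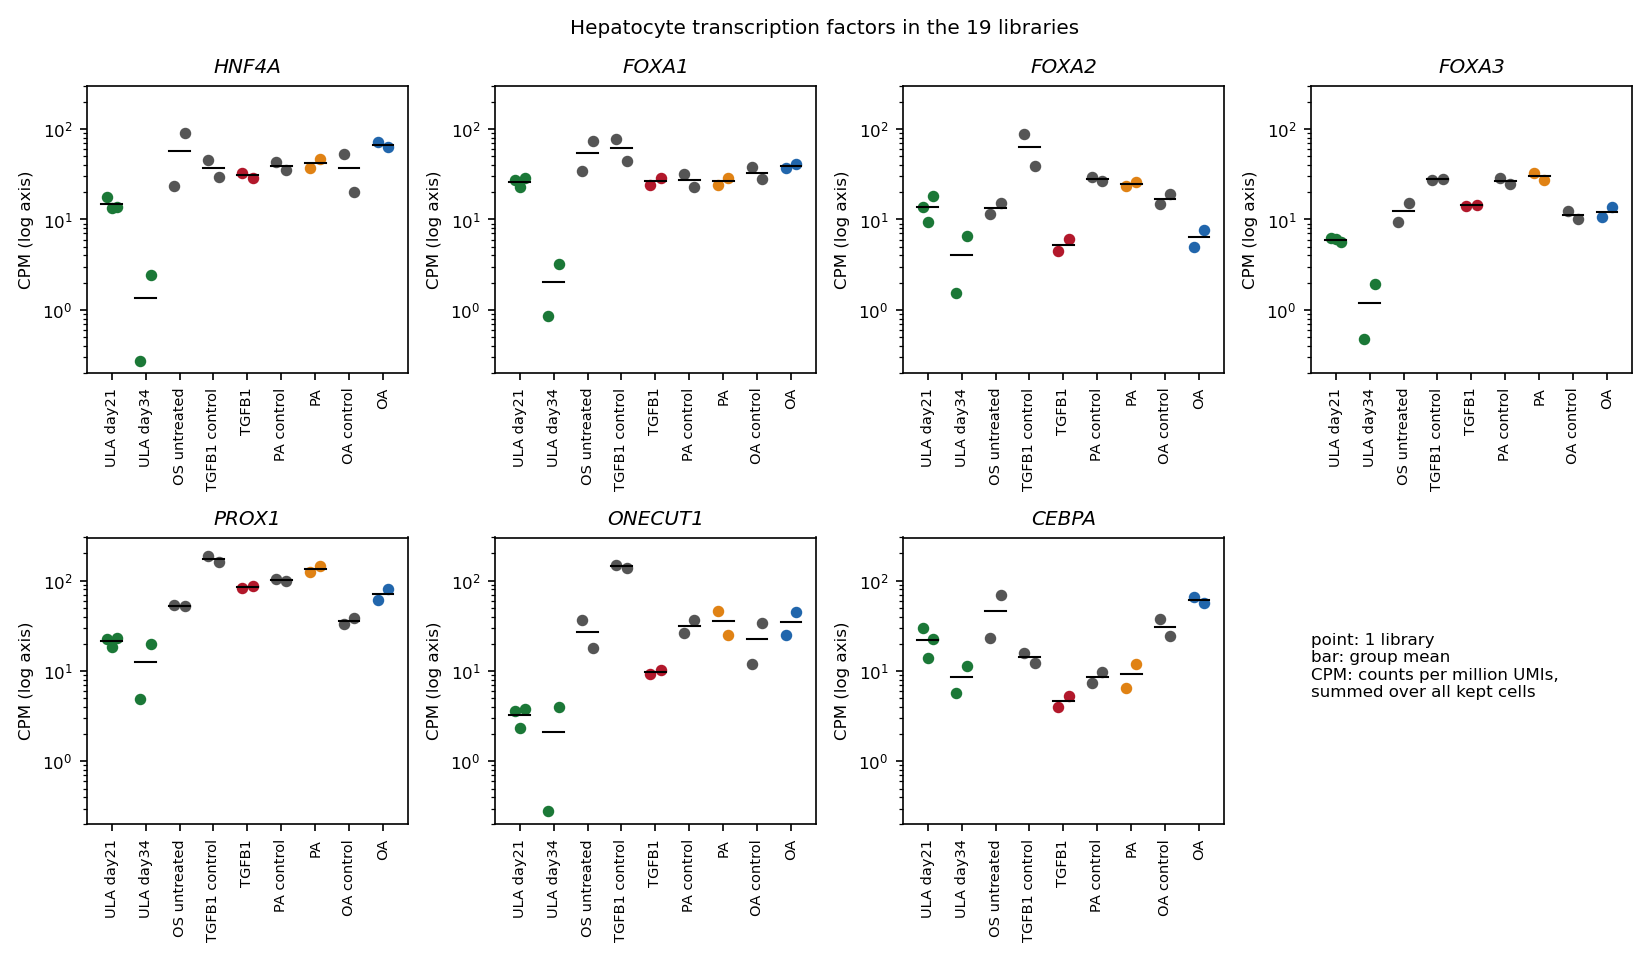
CPM of each factor (log axis) in all 19 libraries by group, 1 point per library and a bar at the group mean. HNF4A spans 0.270 to 90.7 CPM and ONECUT1 0.283 to 149.9 CPM; the lowest point of each belongs to ULA day 34 replicate 1.

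HNF4A averaged 67.6 ± 5.69 CPM in OA, 57.1 ± 47.5 in untreated, 41.9 ± 7.05 in PA, 38.9 ± 5.59 in the PA control, 37.2 ± 11.2 in the TGFB1 control, 36.8 ± 23.5 in the OA control and 30.9 ± 2.99 in TGFB1 (SD, n = 2 each). All neighbours in that order overlapped. It stood at 17.5, 13.4 and 13.8 CPM in the day 21 ULA libraries, below every shaker library, and at 0.270 and 2.45 CPM on day 34, which are 21 and 223 UMIs. HNF4A over whole libraries thus lay lower in ULA plates than on the shaker, while each shaker group overlapped its shaker neighbours in the order. Both OA libraries (71.6 and 63.5 CPM) lay above every other shaker library except the higher untreated one. In cells with an AFP or SERPINA1 UMI, ULA day 21 read 29.8 to 39.4 CPM, inside the shaker range of 22.2 to 99.7. ULA day 34 read 3.19 and 5.91 CPM in such cells. Format, day and experiment differ together between ULA and shaker libraries and cannot be told apart. The pair of untreated libraries differed 3.87-fold in HNF4A, at 23.5 and 90.7 CPM.

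The FOXA genes did not share an order. FOXA1 averaged 61.3 ± 24.1 CPM in the TGFB1 control and fell through overlapping neighbours to 26.3 ± 2.89 (SD, n = 3) on ULA day 21, with only ULA day 34, at 0.861 and 3.24 CPM, apart from the rest. FOXA2 was highest in the TGFB1 control (87.3 and 39.5 CPM) and stood apart in the PA control (29.2 and 26.7) and PA (23.4 and 25.7). Its lowest 3 groups, OA at 4.96 and 7.73, TGFB1 at 4.5 and 6.04 and ULA day 34 at 1.53 and 6.49 CPM, overlapped. FOXA3 formed an upper tier in PA, the TGFB1 control and the PA control, with means of 30.1 ± 3.43, 27.9 ± 0.583 and 26.6 ± 3.01 CPM. A second tier followed from TGFB1 at 14.3 ± 0.427 to the OA control at 11.3 ± 1.67 CPM, and both ULA groups were lower again at 6.0 ± 0.374 (n = 3) and 1.20 ± 1.03 CPM.

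PROX1 gave the most clearly separated order. Its libraries read 187 and 161 CPM in the TGFB1 control, 125 and 145 in PA, 104 and 100.02 in the PA control, 82.0 and 86.7 in TGFB1, 60.3 and 80.8 in OA, 53.8 and 52.1 in untreated, and 32.8 and 38.8 in the OA control. None of these neighbours overlapped; ULA day 21 (22.7, 18.3 and 23.0 CPM) and day 34 (4.93 and 20.0) did. Markers of other PROX1-making cell types were summed beside it. A list of 6 endothelial genes summed to 1.45 to 43.1 CPM, highest in the ULA plates, where PROX1 was lowest. A list of 5 enteroendocrine genes summed to 491 to 937 CPM in the PA control and PA libraries, whose PROX1 ranked after the TGFB1 control, to 94.2 and 35.4 CPM in the TGFB1 control, and to at most 46.5 CPM elsewhere. Their part in the PROX1 levels was not tested.

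ONECUT1 stood at 149.9 and 137 CPM in the TGFB1 control, where the highest library outside that group read 45.9 CPM. The next 5 groups overlapped, from PA at 35.5 ± 14.7 down to the OA control at 22.8 ± 15.6 CPM, whose libraries read 11.8 and 33.9. TGFB1 followed at 9.22 and 10.2, and the ULA libraries were at 3.61, 2.34 and 3.78 CPM on day 21 and 0.283 and 3.95 on day 34. CEBPA had another order again. It was highest in OA (66.3 and 57.2 CPM), untreated (23.0 and 69.4) and the OA control (37.7 and 24.3), and lower in PA (6.43 and 11.9), the PA control (7.41 and 9.69) and TGFB1 (3.97 and 5.25). The CEBPA level of whole ULA day 21 libraries (30.1, 14 and 22.4 CPM) lay inside the shaker range, unlike that of HNF4A. The OA, OA control and untreated files also differ from the other shaker files in software version and gene list. The part of that in the order was not tested.

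Within each library, the factors were compared between cells with and without at least 1 AFP or SERPINA1 UMI. Such a UMI counts a transcript, and secretion was not measured. On the shaker, 18.9% to 79.8% of cells with at least 3 collagen UMIs also held one at 1000 UMIs drawn per cell. Whether all cells with an AFP or SERPINA1 UMI were hepatocytes was not tested. All 7 factors were higher in most libraries in cells that held such a UMI. HNF4A, FOXA1, FOXA3, PROX1 and ONECUT1 had the higher CPM in those cells in 19 of 19 libraries, CEBPA in 18 and FOXA2 in 17. The FOXA2 exceptions were PA control replicate 1 (29.1 CPM with and 30.0 without) and PA replicate 1 (23.3 and 24.8). The CEBPA exception was ULA day 34 replicate 1 (4.5 and 5.81). Cells from the same library share its preparation, so libraries, not cells, were the units of the test.

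HNF4A ran from 22.2 to 99.7 CPM in shaker cells with an AFP or SERPINA1 UMI and from 0 to 34.5 CPM in cells without. The edgeR fit over the 14 shaker libraries, with each library as its own block, put HNF4A 10.3-fold higher in the former (log2 3.36, SE 0.472, adjusted p = 1.31e-05). PROX1 had a log2 difference of 2.64 (SE 0.247, edgeR adjusted p = 2.2e-07) and FOXA2 the smallest, 1.89 (SE 0.460, edgeR adjusted p = 0.00219). In that test 7 of 7 factors were called, all higher, against 53.3% of all genes called and 31% called higher; their median log2 difference was 2.64 against 0.06 over all genes. With AFP alone defining the split, 5 of 7 stayed called, and HNF4A was at 1.26, FOXA1 at 0.94, FOXA3 at 0.59 and PROX1 at 0.59. FOXA2 (0.18) and ONECUT1 (-0.05) were not called by that split. HNF4A, PROX1 and FOXA2 thus differed by less with AFP alone than with UMIs of both genes counted. Genes called ran from 8305 to 9999 over all alternatives of this fit, against 8637 in the main fit.

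The same split was fitted apart in the 5 ULA libraries, and the sizes in the 2 fits were not compared by a test. ONECUT1 ran from 3.56 to 10.2 CPM in cells with an AFP or SERPINA1 UMI and from 0.0414 to 0.313 CPM in the others, a log2 difference of 5.33 (SE 0.223, edgeR adjusted p = 1.94e-04). HNF4A differed by 5.58 (SE 0.406, edgeR adjusted p = 7.4e-04). The ULA fit called 6 of 7 factors, all higher, against 26.6% of genes called and 12.8% called higher. The exception was CEBPA, at 2.17 (SE 0.723, edgeR adjusted p = 0.0643), where the shaker fit gave 2.70 (edgeR adjusted p = 1.1e-05). CEBPA was called in 5 of 11 alternative settings of the ULA fit, over values of 1.77 to 2.72. In ULA cells without AFP or SERPINA1 UMIs, CEBPA stood at 3.72 to 10.3 CPM, where HNF4A stood at 0.0552 to 0.848 CPM. Among other hepatic regulators the same split gave 12 higher and 3 lower of 20 tested on the shaker, and 13 higher and 2 lower of 20 in ULA. Liver protein genes were higher for 15 of 17 tested on the shaker and for 17 of 21 in ULA, and none was lower.

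**Figure D2:**
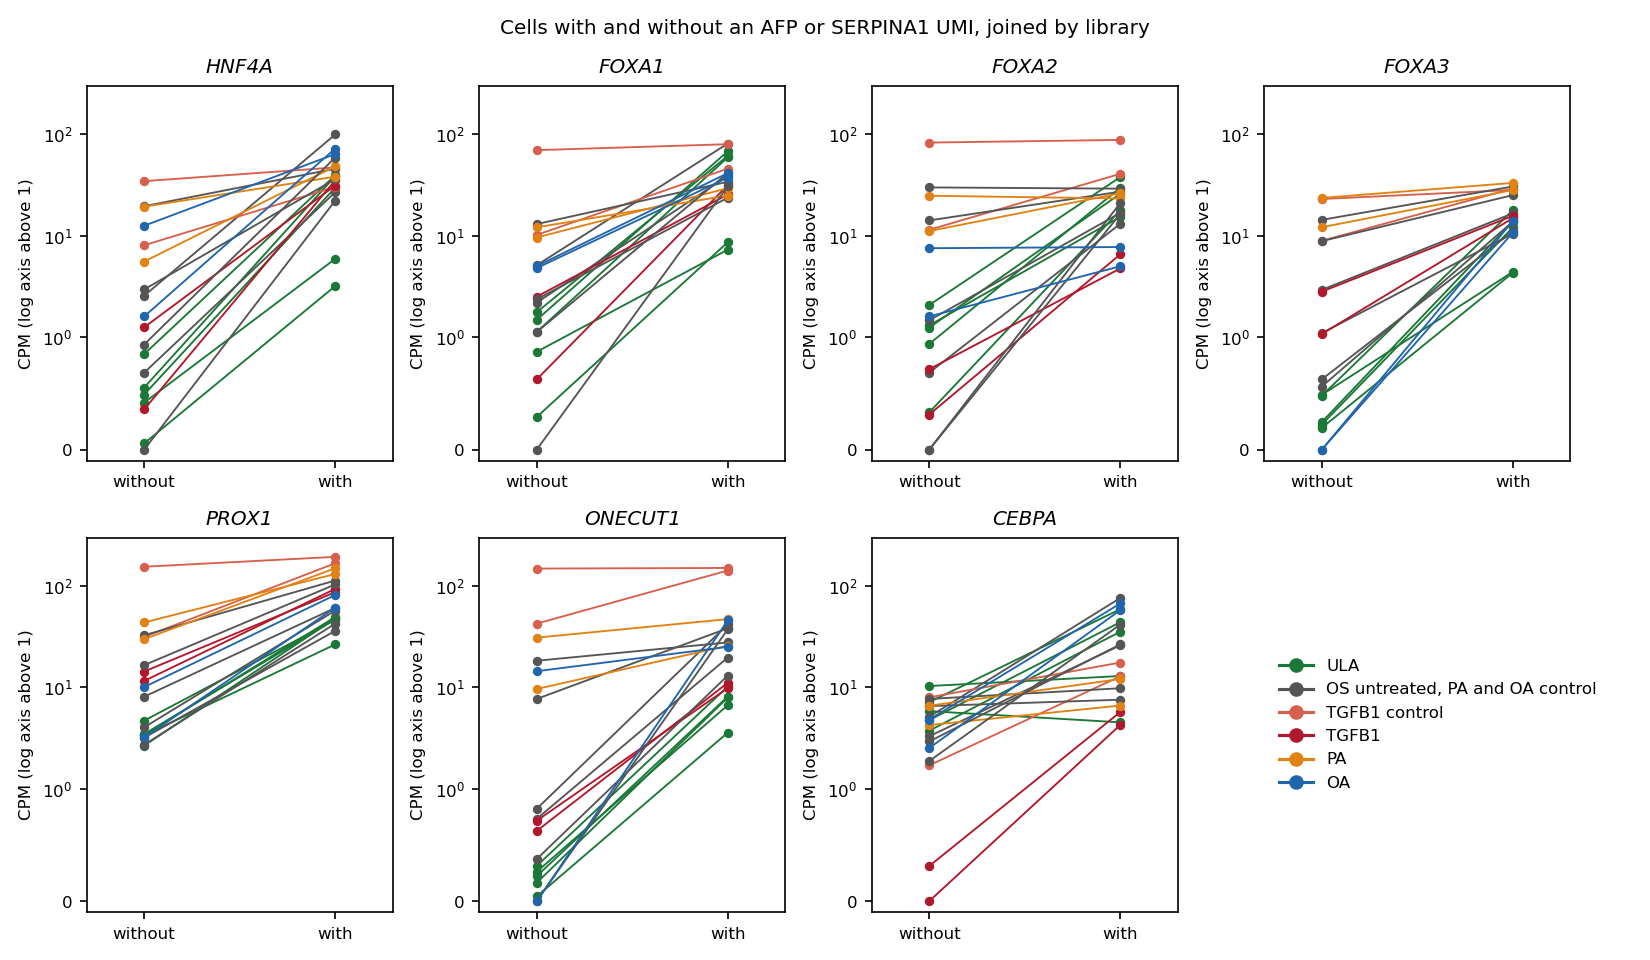
CPM of each factor (log axis above 1, linear below) in cells with and without an AFP or SERPINA1 UMI, 1 pair of points per library joined by a line. HNF4A is higher in the cells with such a UMI in 19 of 19 libraries, and the nearly level line near the top of most panels is TGFB1 control replicate 1 (HNF4A 34.5 and 47.2 CPM).

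Cells that hold an AFP or SERPINA1 UMI had the higher median of UMIs in 18 of 19 libraries, from 1828 against 1407.5 in PA control replicate 1 to 7352 against 1847 in TGFB1 replicate 1. In untreated replicate 2 the medians were 2269 and 2372.5. Shares of cells were therefore compared after drawing 1000 UMIs from every cell that had as many, with shallower cells left out. In TGFB1 control replicate 1 this left out 1993 cells with and 934 cells without an AFP or SERPINA1 UMI. The cells were still split on their UMIs before the draw. A UMI of at least 1 of the 7 factors was then seen in a median of 20.1% of cells with an AFP or SERPINA1 UMI, from 6.19% in ULA day 34 replicate 1 to 45.3% in TGFB1 control replicate 1. Cells without one reached a median of 1.98% (0.367% to 39.4%), and cells with at least 3 collagen UMIs and no AFP or SERPINA1 UMI 0.977% (0% to 3.66%). Choosing collagen cells without such a UMI leaves out those that carry hepatic transcripts, so their share is a low background by its construction. Without the draw the median in AFP or SERPINA1 cells was 61.4%. Library medians were 1404 to 19996 UMIs per cell with such a UMI and 1393 to 14228 per collagen cell.

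PROX1 had a UMI in 1.43% to 17.5% of AFP or SERPINA1 cells at this depth (median 7.14%), and HNF4A was seen in 0.377% to 8.75% (median 3.65%). Detection depends on transcript capture as well as level, so shares are not ranked between genes. HNF4A was seen in 7.59% (95% exact binomial interval 6.65 to 8.61) and 7.38% (6.48 to 8.37) of such cells in OA, and in 5.01% (4.37 to 5.71) and 1.31% (0.896 to 1.84) in its control. ONECUT1 was seen in 14% (13.1 to 14.9) and 14.5% (13.8 to 15.3) in the TGFB1 control and in 1.41% (1.11 to 1.77) and 1.07% (0.831 to 1.36) in TGFB1. Both OA libraries lay above both control libraries for HNF4A, and the ONECUT1 intervals of the groups did not meet. Intervals cover counting error only.

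**Figure D3:**
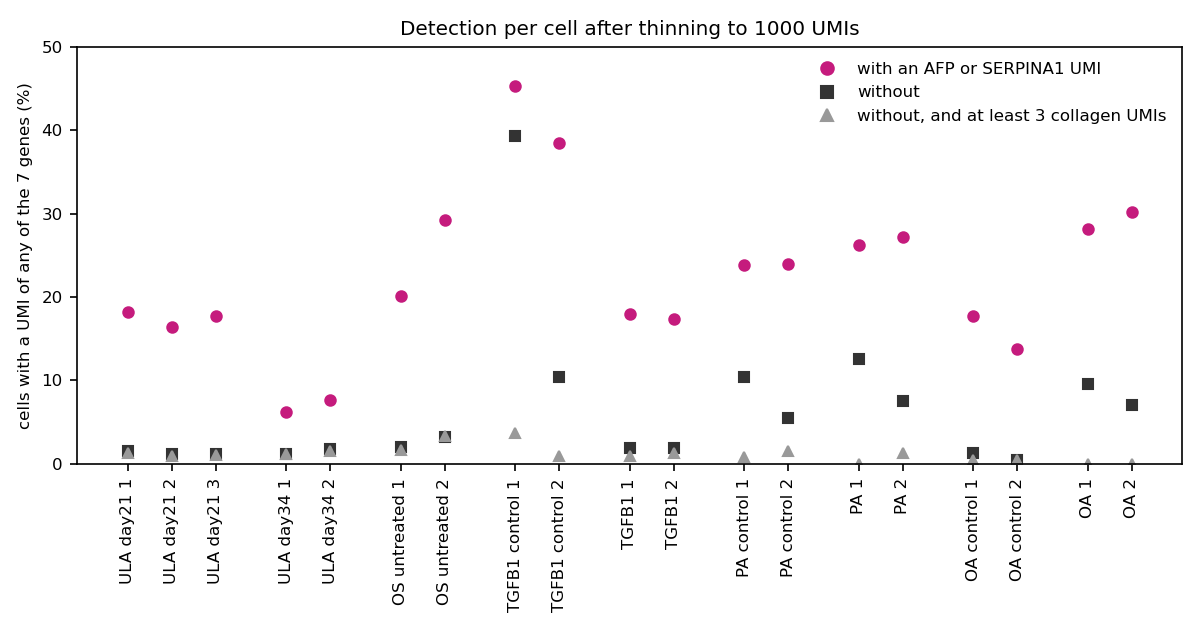
Percent of cells with a UMI of at least 1 of the 7 factors at 1000 UMIs per cell, by library, for cells with an AFP or SERPINA1 UMI, cells without, and collagen cells. Cells with fewer UMIs were left out. TGFB1 control replicate 1 is the library where cells without such a UMI (39.4%) come close to those with one (45.3%).

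For all factors but CEBPA, the 2 kinds of cell were close in TGFB1 control replicate 1. Its cells without an AFP or SERPINA1 UMI held HNF4A at 34.5, FOXA1 at 69.9, FOXA2 at 83.0, PROX1 at 154 and ONECUT1 at 148 CPM, close to its cells with one (47.2, 80.0, 88.1, 193 and 150.2 CPM). In replicate 2 the same cells read 8.05, 10.2, 11.4, 31.4 and 42.4 CPM. In replicate 1, FOXA3 read 23.0 CPM without and 28.3 with such a UMI, and CEBPA 7.94 and 17.5 CPM. That library was the shallowest per cell, with a median of 1039.5 UMIs in cells without such a UMI and 1404 in cells with one, and AFP plus SERPINA1 summed to only 2054 and 3088 CPM in the TGFB1 controls against 14316 CPM or more in the PA controls. The part of depth in this pattern was not tested.

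TGFB1 was added to shaker organoids for 5 days, and the comparison with its own control asks how the factors stood under a fibrogenic signal. ONECUT1, a factor of hepatoblasts and bile ducts, and FOXA2, a factor of the early endoderm, were more than 10-fold lower. PROX1 was lower by less, CEBPA was lower at the edge of the threshold, and the HNF4A libraries of both groups overlapped. These sizes hold against that control only. ONECUT1 averaged 143.5 CPM there, 27.1 in untreated, 31.8 in the PA control and 22.8 in the OA control. FOXA2 averaged 63.4, 13.4, 28.0 and 17.0 CPM in the same order. PROX1 with TGFB1, at 84.4 CPM, lay above untreated (52.9) and the OA control (35.8) and below the PA control (102).

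ONECUT1 read 149.9 and 137 CPM in the control and 9.22 and 10.2 CPM with TGFB1. The log2 difference was -3.69 (SE 0.468, edgeR adjusted p = 1.2e-04), 12.9-fold lower. FOXA2 read 87.3 and 39.5 against 4.5 and 6.04 CPM, a log2 difference of -3.35 (SE 0.335, edgeR adjusted p = 2.05e-05). The libraries of both genes did not overlap, which with 2 libraries a group is a description here and at each later gene, not a test. Those of PROX1, CEBPA, FOXA1 and FOXA3 did not overlap either. Leaving out any 1 library kept both calls, over a range of -3.75 to -3.57 for ONECUT1 and -3.74 to -2.82 for FOXA2 across all settings tried.

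PROX1 read 187 and 161 CPM in the control and 82.0 and 86.7 with TGFB1, a log2 difference of -0.84 (SE 0.184, edgeR adjusted p = 0.00590). Its edgeR adjusted p was 0.0766 without TGFB1 replicate 1. CEBPA read 16.0 and 12.3 against 3.97 and 5.25 CPM (log2 -1.41, SE 0.467, edgeR adjusted p = 0.0464), and its call was lost when any 1 of the 4 libraries was left out. FOXA1 (log2 -0.98, 95% interval -1.77 to -0.20, edgeR adjusted p = 0.0685) and FOXA3 (-0.77, -1.35 to -0.18, edgeR adjusted p = 0.0602) did not pass, and DESeq2 put both under the threshold at adjusted p = 0.0367 and 0.0409.

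HNF4A read 45.1 and 29.3 CPM in the control and 33.0 and 28.8 with TGFB1. Its log2 difference was -0.05 with a 95% interval of -1.21 to 1.12 (edgeR adjusted p = 0.969), so a change of up to about 2-fold either way was not detectable here. Fitted differences are on edgeR's library scaling, whose factors ran from 0.740 to 1.32 over the shaker libraries, and can differ from ratios of CPM. In all, 4 of 7 factors were called, all lower, where 22.2% of 19366 genes were called and 11.3% called lower. The median log2 difference was -0.98 over the factors and -0.05 over all genes.

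**Figure D4:**
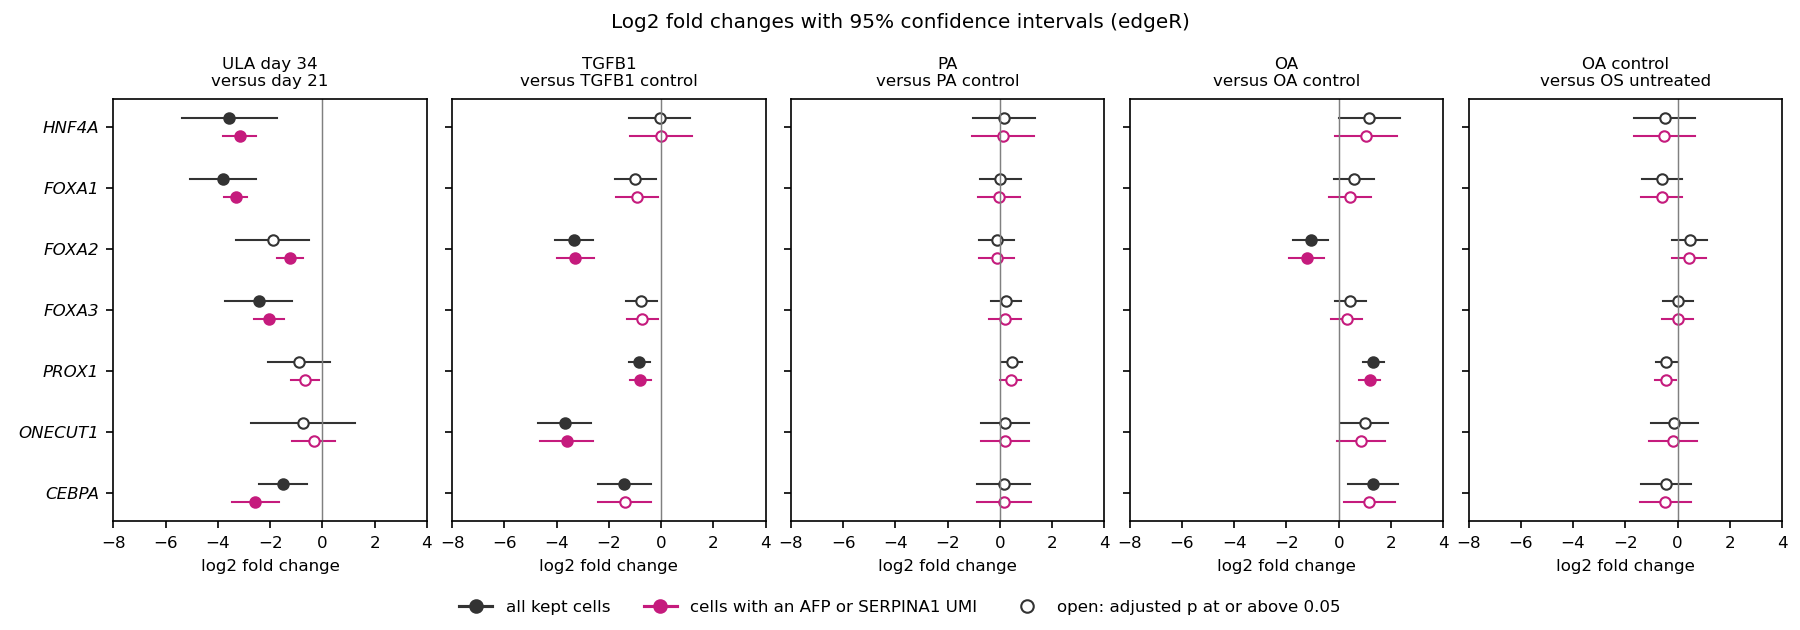
Fitted log2 difference of each factor with its 95% interval in the 5 comparisons, in whole libraries (dark) and in AFP or SERPINA1 cells (magenta), with filled points where the edgeR adjusted p was under 0.05. In whole libraries, ONECUT1 (-3.69) and FOXA2 (-3.35) are lowest under TGFB1, PROX1 lies at 1.32 under OA, and of the 7 PA intervals only that of PROX1 does not span 0.

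The composition of the TGFB1 libraries also differed. A list of 10 mesenchymal genes (collagens, DCN, PDGFRB and others) summed to 2383 to 2510 CPM with TGFB1 and 678 to 771 CPM in its control. Within cells holding an AFP or SERPINA1 UMI, that list was still at 1774 to 1911 against 287 to 419 CPM. A list of 10 intestinal genes summed to 78.7 and 91.6 CPM with TGFB1 and 259 and 223 in its control (in AFP or SERPINA1 cells 83.6 and 98.6 against 275 and 232). A list of 6 squamous genes summed to 57.1 and 47 against 2.59 and 5.03 CPM. At 1000 UMIs, 79.8% and 70.6% of TGFB1 cells with at least 3 collagen UMIs held an AFP or SERPINA1 UMI, so transcripts of both kinds were often counted under the same barcode. The part of these genes or cells in the results was not tested.

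Among AFP or SERPINA1 cells alone, the differences were nearly as large. ONECUT1 read 150.2 and 142 CPM in the control and 9.80 and 11.1 with TGFB1 (log2 -3.61, SE 0.472, edgeR adjusted p = 1.7e-04). FOXA2 differed by -3.28 (SE 0.331, edgeR adjusted p = 2.8e-05) and PROX1 by -0.80 (SE 0.187, edgeR adjusted p = 0.00886). These 3 of 7 factors were called, all lower, where 21.5% of genes were called and 10.8% called lower. CEBPA had nearly the same difference as in whole libraries, -1.40, with an edgeR adjusted p of 0.0511.

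Whether TGFB1 and its control differed more in one kind of cell was tested directly. The effect in AFP or SERPINA1 cells minus that in the other cells was 4.13 (SE 0.921, edgeR adjusted p = 0.0171) for HNF4A and 3.12 (SE 0.740, edgeR adjusted p = 0.0218) for FOXA1. HNF4A in cells without such a UMI read 34.5 and 8.05 CPM in the control and 0.357 and 1.25 with TGFB1, and FOXA1 read 69.9 and 10.2 against 2.50 and 0.624 CPM. In the same cells a list of 8 ductal genes summed to 5427 and 2202 CPM in the control and 1013 and 974 with TGFB1, and the mesenchymal list to 2742 and 8213.6 against 9338 and 10780 CPM. AFP plus SERPINA1, which set the split, also differed over whole libraries (2054 and 3088 CPM in the control, 5073 and 4218 with TGFB1). The cells without such a UMI thus need not be alike in both groups. The part of these in the result was not tested. The fit called 2 of 7 factors, both higher, against 6.01% of genes called and 4.12% called higher. Both calls were lost without TGFB1 control replicate 1 or without either TGFB1 library. In the cells without such a UMI taken alone, 7 of 7 factors were called lower (edgeR), with a median log2 difference of -4.25, against 5.71% of genes called and 4.34% called lower. That count fell without TGFB1 control replicate 1 and without either TGFB1 library, so it rests on single libraries.

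Of 21 other hepatic regulators, 8 fell with TGFB1, none rose and 13 did not pass the test (edgeR, adjusted over all genes), where 11.3% of all genes were called lower. Their median log2 difference was -0.95. The largest were KLF15 (-2.61), a regulator of amino acid and glucose metabolism, CREB3L3 (-1.81), a liver lipid regulator, and HHEX (-1.80), a homeobox factor of the liver bud. Of 21 tested genes for secreted and metabolic liver proteins, 9 fell and none rose. The largest were ALB (-4.53), PCK1 (-3.42), the gluconeogenic enzyme, and APOB (-3.05), the core of very-low-density lipoprotein. AFP plus SERPINA1, which are not on that list, went the other way. Their sum was 2054 and 3088 CPM in the control and 5073 and 4218 CPM with TGFB1. In AFP or SERPINA1 cells it was 2443 to 3234 against 4594 to 5417 CPM.

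OA at 500 µM gave another pattern. PROX1 and CEBPA were higher than in the OA control and FOXA2 was lower. HNF4A and ONECUT1 had positive differences that did not pass the test, and FOXA1 and FOXA3 overlapped their control.

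PROX1 read 32.8 and 38.8 CPM in the control and 60.3 and 80.8 with OA, 2.49-fold higher (log2 1.32, SE 0.186, edgeR adjusted p = 1.2e-04). That call held in every setting tried, over log2 values of 0.90 to 1.5. CEBPA read 37.7 and 24.3 against 66.3 and 57.2 CPM (log2 1.31, SE 0.445, edgeR adjusted p = 0.0295). FOXA2 read 14.8 and 19.1 against 4.96 and 7.73 CPM, a log2 difference of -1.08 (SE 0.311, edgeR adjusted p = 0.0133). The libraries of these 3 genes did not overlap, and neither did those of HNF4A, which was not called. The CEBPA call was lost without either OA library or without OA control replicate 2, and the FOXA2 call without OA replicate 1 (edgeR adjusted p = 0.134) or OA control replicate 2 (edgeR adjusted p = 0.0754).

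HNF4A read 53.5 and 20.2 CPM in the control and 71.6 and 63.5 with OA. The difference was 1.17 on the log2 scale (95% interval 0.00 to 2.35, edgeR adjusted p = 0.0985), and the control libraries differed 2.65-fold from each other. Without OA control replicate 1, the higher of the pair, the HNF4A difference was 2.16 (edgeR adjusted p = 0.0187). ONECUT1 read 11.8 and 33.9 against 24.9 and 45.2 CPM (log2 0.99, edgeR adjusted p = 0.0769), and without OA control replicate 2 it was 1.82 (edgeR adjusted p = 0.0122). With no gene filter and all libraries kept, edgeR called HNF4A (adjusted p = 1.7e-05) and ONECUT1 (adjusted p = 3.8e-04), and DESeq2 called ONECUT1 with the filter (adjusted p = 0.0494). In whole libraries 3 of 7 factors were called, 2 higher and 1 lower, where 43.3% of all genes were called, a share close to theirs. The factors' median log2 difference was 0.99 and that of all genes -0.08.

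Intestinal genes moved with OA in these libraries. A list of 10 intestinal epithelial genes (CDX2, CDH17, FABP2, SLC26A3 and others) summed to 4323 to 5533 CPM with OA and 317 to 589 CPM in its control, and inside AFP or SERPINA1 cells to 4355 to 5597 against 349 to 650 CPM. The mesenchymal list went the other way, at 130 to 167 CPM with OA and 2814 to 4733 CPM in the control. The part of these cells or genes in the factors' levels was not tested. In cells with at least 1 UMI of EPCAM, an epithelial adhesion gene, CEBPA had a difference of 0.90 (edgeR adjusted p = 0.101).

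Among AFP or SERPINA1 cells, PROX1 read 36.0 and 42.4 CPM in the control and 60.9 and 81.3 with OA (log2 1.18, SE 0.188, edgeR adjusted p = 3.7e-04). FOXA2 read 16.4 and 21.0 against 4.99 and 7.73 CPM (log2 -1.23, SE 0.309, edgeR adjusted p = 0.00701). The fit called these 2 of 7 factors, 1 higher and 1 lower, against 40.7% of genes. CEBPA, at 41.5 and 26.4 against 67.0 and 57.6 CPM, had a log2 difference of 1.18 (edgeR adjusted p = 0.0523).

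Very few OA cells lacked an AFP or SERPINA1 UMI, 99 and 62 against 1072 and 600 in the control, so the difference between kinds of cell was poorly measured. With a split on 1 UMI, FOXA2 was the only factor called for it, 1 of 7 against 8.97% of genes, and its counts in the cells without such a UMI were 0 and 0 in the control and 1 and 3 with OA. A size cannot be read from counts this low, and the call was lost when any 1 of the 4 libraries was left out. Requiring 3 UMIs gave 5 of 7 calls and the split at 1000 UMIs 7 of 7, all lower, against 15.2% of genes called and 6.93% called lower in the former and 20.7% and 8.96% in the latter. At 1000 UMIs this put FOXA3 (-2.07), PROX1 (-1.96) and CEBPA (-1.76) on the other sign. In the OA cells without such a UMI taken alone, 1 of 7 factors was called (ONECUT1, higher, with 2 and 0 counts in the control and 9 and 0 with OA), against 9.66% of genes called and 5.29% called higher. Requiring 3 UMIs or setting the split at 1000 UMIs gave 6 calls there, which are not set against a share of genes at those splits. Genes called ran from 245 to 5363 over all alternatives of that fit, against 1263 in the main fit.

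Of the 21 other hepatic regulators, 11 rose and 2 fell with OA, where 21.7% of all genes were called higher and 21.6% lower. The regulators' median log2 difference was 0.77. CREB3L3 (4.48), NR1H4 (2.91), the bile acid receptor, and NR1I2 (2.47), the pregnane X receptor, rose by most. Of 21 tested liver protein genes 14 rose and none fell, led by APOC3 (6.27), an apolipoprotein of triglyceride-rich particles, ALB (5.38) and PCK1 (5.15). Several of these, including APOC3, CREB3L3 and NR1I2, are also made by intestinal epithelium.

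In ULA plates the factors were compared between day 21 and day 34. FOXA1, HNF4A, FOXA3 and CEBPA were lower on day 34, FOXA1 and HNF4A by more than 10-fold with all libraries kept. FOXA2 was lower without passing the test, and PROX1 and ONECUT1 overlapped between days.

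FOXA1 read 27.1, 23.1 and 28.7 CPM on day 21 and 0.861 and 3.24 on day 34, 13.9-fold lower (log2 -3.80, SE 0.533, edgeR adjusted p = 0.00607). HNF4A read 17.5, 13.4 and 13.8 against 0.270 and 2.45 CPM (log2 -3.56, SE 0.774, edgeR adjusted p = 0.0240). FOXA3 read 6.31, 6.11 and 5.58 against 0.475 and 1.93 CPM (log2 -2.44, SE 0.545, edgeR adjusted p = 0.0265). Every day 34 library lay below every day 21 library for these genes, as it did for CEBPA (30.1, 14 and 22.4 against 5.72 and 11.2 CPM, log2 -1.51, edgeR adjusted p = 0.0413).

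FOXA2 differed by -1.90 (95% interval -3.29 to -0.52, edgeR adjusted p = 0.0697), PROX1 by -0.90 (-2.09 to 0.29) and ONECUT1 by -0.74 (-2.73 to 1.26). The FOXA2 libraries of both days did not overlap either. The day 34 libraries were far apart from each other, 13.97-fold for ONECUT1 and 9.07-fold for HNF4A, with replicate 1 lower for all 7 factors. They also differed in the share of cells with an AFP or SERPINA1 UMI, 4.88% (211 of 4326 cells) in replicate 1 and 30.0% (3728 of 12427) in replicate 2. In all, 4 of 7 factors were called, all lower, against 15.6% of genes called and 7.19% called lower. The factors' median log2 difference was -1.90 and that of all genes 0.01. Without day 34 replicate 2 all 7 were called, with FOXA2 at -3.32, PROX1 at -2.26 and ONECUT1 at -3.66, against 30.7% of genes called and 14.8% called lower in that fit. Between leaving out day 34 replicate 1 and leaving out day 34 replicate 2, HNF4A moved from -2.72 to -5.92, FOXA1 from -3.14 to -5.08 and FOXA3 from -1.76 to -3.80, and CEBPA from -1.10 to -2.10. HNF4A and FOXA3 lost their call without any 1 of the day 21 libraries, FOXA1 without day 21 replicate 3 (edgeR adjusted p = 0.0508) and CEBPA without day 21 replicate 1 or 3. CEBPA was at -0.91 (edgeR adjusted p = 0.255) when cells needed 1000 genes and at most 10% mitochondrial UMIs.

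Among ULA cells with an AFP or SERPINA1 UMI, the day 34 libraries were closer together for every factor except CEBPA. For CEBPA they lay further apart. FOXA2 was also called. HNF4A read 38.7, 39.4 and 29.8 CPM on day 21 and 3.19 and 5.91 on day 34 (log2 -3.16, SE 0.277, edgeR adjusted p = 2.3e-04). FOXA1 read 59.4, 68.1 and 61.3 against 8.63 and 7.28 CPM (log2 -3.32, SE 0.197, edgeR adjusted p = 7.2e-05). CEBPA read 58.9, 35.3 and 43.8 against 4.5 and 12.9 CPM (log2 -2.57, SE 0.392, edgeR adjusted p = 0.00251). These genes were lower on day 34 also in the cells that had AFP or SERPINA1 transcripts, but those cells were not alike on both days. AFP plus SERPINA1 summed in them to 2406 to 2892 CPM on day 21 and 864 to 1380 CPM on day 34. The part of this in the difference was not tested. FOXA3 (log2 -2.04) and FOXA2 (log2 -1.23, SE 0.218, edgeR adjusted p = 0.00461) completed the calls, 5 of 7 factors and all lower, against 26% of genes called and 12.7% called lower. ONECUT1 read 7.92, 6.65 and 8.09 against 3.56 and 10.2 CPM and overlapped, and with the split set at 1000 UMIs per cell it was called higher on day 34 (log2 0.81, edgeR adjusted p = 0.0167). The FOXA2 call was lost, at log2 -0.18, when 3 AFP or SERPINA1 UMIs were required.

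HNF4A was seen in 2.98%, 3.02% and 2.58% of such cells at 1000 UMIs on day 21 and in 0.476% (95% exact binomial interval 0.0121 to 2.62) and 0.377% (0.206 to 0.632) on day 34. ONECUT1 was seen in 0.901%, 0.640% and 1.10% on day 21, in 0 of 210 cells in day 34 replicate 1 and in 0.862% in replicate 2. By the limit of 3 counts, 0 of 210 allows up to 1.43% of cells with a UMI at this depth (exact binomial upper limit 1.74%), and without the draw 4.27% of the 211 cells held an ONECUT1 UMI. Both day 34 shares of HNF4A lay below all day 21 shares, and those of ONECUT1 overlapped.

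The change with time was compared between both kinds of cell. The effect in AFP or SERPINA1 cells minus that in the other cells was -3.27 for CEBPA (SE 0.160, edgeR adjusted p = 8.4e-08). CEBPA in cells without such UMIs read 7.12, 3.72 and 4.74 CPM on day 21 and 5.81 and 10.3 on day 34. The fit called 5 of 7 factors in that direction (HNF4A, FOXA1, FOXA3, PROX1 and CEBPA), against 32.5% of genes called and 19% called lower. At 1000 UMIs per cell or with 3 UMIs required, only CEBPA was called. In the cells without such UMIs taken alone, 0 of 7 factors were called by edgeR (1 with an unadjusted p under 0.05), against 15.1% of genes. That count changed when day 34 replicate 2 was left out. At 1000 UMIs the differences between kinds of cell had the other sign for HNF4A (0.39), FOXA1 (0.69), FOXA3 (0.29) and PROX1 (0.58).

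Squamous, mesenchymal and intestinal genes moved with day 34. A list of 6 squamous epithelial genes (TP63, KRT5, KRT14 and others) summed to 717 and 1349 CPM on day 34 and to 21.1 to 37.9 CPM on day 21, and among AFP or SERPINA1 cells to 620 to 1113 against 19.2 to 24.8 CPM. The mesenchymal list summed to 2578 to 4133 on day 34 and 1859 to 2299 CPM on day 21, and among AFP or SERPINA1 cells to 2206 to 3683 against 682 to 854 CPM. The intestinal list summed to 3.76 and 19.9 CPM on day 34 and 177 to 320 CPM on day 21, and among AFP or SERPINA1 cells to 30.9 and 46.4 against 521 to 697 CPM. Day 34 organoids also had the longer trypsin treatment. The part of these in the factors' levels was not tested. Of 20 tested hepatic regulators, 7 fell and 2 rose, where 15.6% of all genes were called and 7.19% called lower, led by NR1I2 (-4.03), CREB3L3 (-3.61) and GATA4 (-3.49), an endoderm zinc-finger factor. Of 20 tested liver protein genes, 11 fell and none rose, led by F2 (-6.63), the thrombin precursor, ALB (-4.85) and PCK1 (-4.42).

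PA at 500 µM gave no call. PROX1 had the largest difference, reading 104 and 100.02 CPM in the control and 125 and 145 with PA (log2 0.46, 95% interval 0.06 to 0.85), and was the 1 factor of 7 with an unadjusted edgeR p under 0.05 (0.0272, adjusted p = 1), as had 540 of all 19366 genes. The libraries did not overlap for PROX1, nor for FOXA2 (29.2 and 26.7 against 23.4 and 25.7 CPM). HNF4A read 42.9 and 35.0 against 36.9 and 46.9 CPM, and its interval, -1.01 to 1.34, leaves room for a change of more than 2-fold in either direction. For FOXA2 the interval was -0.79 to 0.54, for FOXA3 -0.36 to 0.82, for FOXA1 -0.78 to 0.81, for ONECUT1 -0.71 to 1.13 and for CEBPA -0.86 to 1.17. The count was 0 of 7 by edgeR and by DESeq2, against 0.0465% of genes (9 of 19366).

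AFP or SERPINA1 cells gave 0 of 7 with PA, against 0.0417% of genes, with 1 unadjusted edgeR p under 0.05, for PROX1 (458 of 19197 genes). PROX1 there read 113 and 103 CPM in the control and 131 and 149 with PA. The difference between kinds of cell was called for 0 of 7 factors and for 0% of genes. Cells without such UMIs taken alone also gave 0 of 7 and 0% of genes by edgeR, with no factor under an unadjusted p of 0.05. None of the 21 other regulators or the 21 tested liver protein genes was called.

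The OA control and the untreated shaker organoids, a comparison of 2 groups without OA, gave 0 of 7 calls by edgeR and by DESeq2, against 0.573% of genes. PROX1 read 53.8 and 52.1 CPM untreated and 32.8 and 38.8 in the OA control (log2 -0.42, 95% interval -0.82 to -0.02, edgeR adjusted p = 0.316). It was the 1 factor of 7 under 0.05 before adjustment, as were 2822 of all 19366 genes. HNF4A differed by -0.49 (-1.65 to 0.68), FOXA1 by -0.59 (-1.37 to 0.19), CEBPA by -0.44 (-1.39 to 0.51), FOXA2 by 0.47 (-0.19 to 1.13), FOXA3 by 0.02 (-0.57 to 0.61) and ONECUT1 by -0.12 (-1.03 to 0.79). AFP or SERPINA1 cells gave 0 of 7 against 0.484% of genes, with 1 unadjusted edgeR p under 0.05 (2712 of 19197 genes), and the difference between kinds of cell 0 of 7 against 0% of genes, also with 1 (409 of 16194 genes): FOXA2, where the OA control had no count in cells without such UMIs. Those cells taken alone gave 0 of 7 by edgeR, with none under an unadjusted p of 0.05, against 0.0153% of genes. None of the 21 other regulators or the 21 tested liver protein genes was called. This comparison and that of OA share the OA control libraries.

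The genes whose levels ran most like each factor over the 19 libraries were found by the root mean square difference of centred log2(CPM + 1), among 11104 genes with a mean of at least 5 CPM. For HNF4A they were VIL1 (0.39), SLC44A4 (0.40) and GPR160 (0.42), against a spread of HNF4A itself of 1.46. FOXA1 also had VIL1 first (0.41), followed by ISX (0.47) and SHH (0.52). VIL1, an actin bundler of microvilli, and ISX, an intestinal homeobox factor, are on the intestinal list above. FOXA3 and PROX1 shared GAL3ST1 as the nearest gene (0.30 and 0.31), a sulfotransferase, followed by PDX1 (0.33) and SOX6 (0.38) for FOXA3 and by FZD5 (0.37) and PRDM16 (0.39) for PROX1. CEBPA was nearest to MGST1 (0.43), SLCO2B1 (0.50) and MARC1 (0.51). The nearest genes were GATA6-AS1 (0.56), GRB14 (0.57) and NR6A1 (0.58) for FOXA2 and DNAJC22, F5 and LINC02532 (0.74 each) for ONECUT1, whose own spread was 1.76. The libraries share culture format and experiment, so these are descriptions of likeness over groups.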

How the data were processed

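Single-cell 3′ libraries of liver organoids were deposited by the authors as count matrices of genes by cell barcodes, whole UMI numbers with no normalization, per the file headers and values. The submitters' processing notes name bcl2fastq, Cell Ranger 3.0.2, Scanpy and GRCh38, and the matrix headers give version 3.0.2 for 13 files and 6.0.2 for the OA, OA control and untreated files. The files list 58721 genes for ULA, 33538 for TGFB1 and PA and 36601 for OA and untreated. The shaker fits therefore used 32732 shared identifiers, while CPM were taken over each file's own list. Deposited barcodes (138053) held at least 500 UMIs each.

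Counts were summed per library over cells with 500 genes or more and no more than 20% mitochondrial UMIs (Python 3.11.15, scanpy 1.11.5 for doublet scores, scipy 1.17.1). Doublets were kept: Scrublet's automatic threshold marked 12.6% of cells in ULA day 34 replicate 2 and at most 0.905% in each of the other libraries. An alternative removed the highest-scoring 2.75% to 10.7% of cells per library. Sums were tested with edgeR 4.0.16 (quasi-likelihood, TMM, filterByExpr) in R 4.3.3, with DESeq2 1.42.0 as an alternative. The 14 shaker libraries were fitted together, because each group has 2, and the 5 ULA libraries apart. A result was called at a Benjamini-Hochberg adjusted p under 0.05 over all genes tested. Effects in cells with and without AFP or SERPINA1 UMIs were compared by an interaction with library as a block; the fit in cells without them alone was added after seeing the data. The fits were tested on simulated data.

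All 7 factors are named in every comparison. From 2 further lists (21 hepatic regulators, 22 liver protein genes) counts are given, and the 3 genes with the largest called log2 change. Likeness names the 3 nearest genes. The members and lists were chosen with earlier results of these data known. With CPM of a library, a count of 3 UMIs sets the level below which a zero cannot be told from a low level. Alternatives covered tool, scaling, gene and cell filters, doublets, EPCAM cells, the definition and depth of the AFP or SERPINA1 split, a replicate block and leaving out each library.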

Additional observations from a re-analysis of the deposited data

Results flagged for a closer look

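These results stand out because the change with treatment or time, tested as an interaction in edgeR, differed between cells with and without AFP or SERPINA1 UMIs. No group holds 4 libraries, so single outlying libraries were not looked for.

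With TGFB1, the effect in cells with such UMIs minus that in the others was a log2 value of 4.13 for HNF4A and 3.12 for FOXA1. HNF4A in the cells without such UMIs read 34.5 and 8.05 CPM in the control and 0.357 and 1.25 with TGFB1. In cells with such UMIs it averaged 38.7 CPM in the control and 33.3 with TGFB1. AFP plus SERPINA1, which set the split, summed over whole libraries to 2054 and 3088 CPM in the control and 5073 and 4218 with TGFB1. The cells without such UMIs thus need not be alike in both groups, and the part of this was not tested. Both calls were lost without TGFB1 control replicate 1 or without either TGFB1 library. The HNF4A interval was 2.17 to 6.10. All 4 libraries showed HNF4A higher in cells with such UMIs, and TGFB1 control replicate 1 had the smallest gap, 47.2 against 34.5 CPM. With OA, the FOXA2 difference was -10.49, a value that rests on 0 and 0 counts in the control cells and 1 and 3 counts in the OA cells without such UMIs, and it is not a measure of size.

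Between ULA day 34 and day 21, the differences were -1.93 for HNF4A, -2.09 for FOXA1, -2.25 for FOXA3, -1.06 for PROX1 and -3.27 for CEBPA. HNF4A in cells without such UMIs read 0.551, 0.848 and 0.489 CPM on day 21 and 0.0552 and 0.417 on day 34, so those cells had little HNF4A on either day. With the split set at 1000 UMIs per cell HNF4A (0.39), FOXA1 (0.69), FOXA3 (0.29) and PROX1 (0.58) had the other sign and none of them was called; CEBPA alone stayed called there and with 3 UMIs required. PROX1 in the same cells, split without the draw, read 2.65, 3.37 and 3.45 against 3.35 and 4.68 CPM.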

How the results depend on the processing

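Of 50 called results on single factors, 453 of 533 alternative values kept direction and call, 74 lost the call and 6 reversed. Of 104 results not called, 62 of 867 alternative values gained a call and 109 changed sign, 7 of these with a call. The cause was not tested for any of these.

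Called factors per comparison moved as follows. Requiring 3 AFP plus SERPINA1 UMIs gave 5 instead of 3 for TGFB1 in AFP or SERPINA1 cells, 5 instead of 1 for the OA difference between kinds of cell and 1 instead of 5 for the ULA difference. Setting the split at 1000 UMIs per cell gave 5, 7 and 1 for the same results and 4 instead of 2 for the TGFB1 difference. With no gene filter OA gave 5 instead of 3. In cells without AFP or SERPINA1 UMIs, whose alternatives were chosen after seeing the data, OA gave 6 calls instead of 1 under both of these splits (FOXA3 reversed to 3.11 and 2.00) and 2 with the replicate block, and ULA gave 2 instead of 0 at 1000 UMIs. Leaving out 1 library there gave 0 to 7 calls for TGFB1, 0 to 1 for OA (ONECUT1 from -2.60 without OA replicate 1 to 7.42 without OA control replicate 1) and 0 to 4 for ULA. The share of AFP or SERPINA1 cells with a factor UMI was 61.4% without the draw to 1000 UMIs. Reversed values with the split at 1000 UMIs were ONECUT1 0.81 for ULA days in AFP or SERPINA1 cells (edgeR adjusted p = 0.0167), HNF4A 0.39, FOXA1 0.69, FOXA3 0.29 and PROX1 0.58 for the ULA difference, and FOXA3 -2.07, PROX1 -1.96 and CEBPA -1.76 for the OA difference. Requiring 3 UMIs reversed FOXA3 to -3.14 for the OA difference, and AFP alone put ONECUT1 at -0.0521 between kinds of shaker cell. Leaving out 1 library at a time gave 2 to 4 calls for TGFB1, 1 to 4 for OA, 0 to 7 for ULA, 0 for PA and for the OA control against untreated, 2 to 3, 1 to 4 and 5 to 7 for the first 3 in AFP or SERPINA1 cells, 0 to 6, 0 and 2 to 6 for their differences between kinds of cell, and 7 and 6 to 7 for cells with against without these UMIs on the shaker and in ULA.

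With the replicate block the calls were 3 for TGFB1, 2 for OA and 0 for ULA instead of 4. In AFP or SERPINA1 cells they were 3, 2 and 5. Same-numbered samples share only a number: their deviations correlated at -0.222 for TGFB1, 0.0887 for PA, 0.0408 for OA, -0.440 for OA control and untreated, and -0.165 and -0.269 for ULA, so no paired reading is given. Genes called over the whole table were 4295 for TGFB1 (1704 without TGFB1 replicate 1, 2232 without TGFB1 replicate 2, 2319 without TGFB1 control replicate 1), 8378 for OA (5335 without OA replicate 1, 5171 without OA control replicate 2), 3476 for ULA (0 with the replicate block, 697 to 7166 without 1 library), 9 for PA (52 by DESeq2, 162 with no gene filter, 4 with the block) and 111 for OA control against untreated (712 by DESeq2, 523 with no gene filter, 179 in EPCAM cells, 0 with the block). In cells without AFP or SERPINA1 UMIs they were 746 for TGFB1 (11 to 3882 over the alternatives), 1263 for OA (245 to 5363), 3065 for ULA (91 to 6349), 0 for PA (0 to 10) and 2 for OA control against untreated (0 to 8). Low counts limit the precision for HNF4A in ULA day 34 replicate 1, which rests on 21 UMIs although the library had the highest median of UMIs per cell (14304.5), and for the 99 and 62 OA cells without AFP or SERPINA1 UMIs.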

Other observations

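The other factors were also read in cells with and without an HNF4A UMI, at 1000 UMIs per cell, in the 15 libraries with at least 50 HNF4A cells. CEBPA was seen more often in HNF4A cells in 11 of these libraries and less often in 4, with medians of 2.65% and 1.14%. The split was 7 higher and 8 lower for FOXA1, 8 and 7 for FOXA2, 9 and 6 for FOXA3 and 9 and 6 for PROX1. ONECUT1 had a higher share in HNF4A cells in 4 libraries and a lower one in 11. Among the 11, ULA day 21 replicates 1 and 3 had only 56 and 50 HNF4A cells. None of these held an ONECUT1 UMI, against 0.275% and 0.326% of the others, so a lower share there says little. TGFB1 control replicate 1 was nearly level (13.7% and 14.2%). In OA, ONECUT1 was seen in 1.37% and 4.87% of HNF4A cells and in 6.69% and 7.29% of the others. At this depth most cells that make a factor show no UMI of it, and cells of 1 library share their preparation, so these shares are given as a description without a test.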
